A study of Mus musculus with 6 samples.

Results

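Expression of 6 dual-specificity phosphatases that switch off MAP kinases, Dusp1, Dusp2, Dusp4, Dusp5, Dusp6 and Dusp10, was followed in NKp46+ cells of the mouse intestine, skin and spleen. All probes of the deposited tables that carry the symbol of a member were taken, which gave 9 probes for 5 genes. Dusp5 had no probe under its own symbol, and 1 probe labelled LOC240672, described in the tables as similar to a MAP kinase phosphatase, was assigned to it because 240672 is the gene ID of Dusp5 in the RefSeq gene table. This makes 10 probes for 6 genes, of 46643 probes on the array. The cells were sorted by flow cytometry markers as CD45+ CD3- Nkp46+ NK11+, as the labels spell them, from the intestine (lamina propria of the gut), the skin and the spleen of male RAG-2-KO mice of the C57BL/6 strain at 12 weeks of age, with 2 samples per tissue. RAG-2-KO mice have no mature T or B cells, so this deletion is shared by all 3 groups, and no tissue was treated. Each sample was hybridised to 1 Illumina BeadChip. Whether the 2 samples of a tissue came from separate mice is not stated in the labels, so the p-values reflect sample-to-sample spread that may be technical only.

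MAP kinases (ERK, p38 and JNK) become active when an upstream kinase phosphorylates a threonine and a tyrosine in their activation loop, and the MAP kinase phosphatases remove both phosphates. Dusp1, Dusp2, Dusp4 and Dusp5 encode nuclear enzymes whose genes are themselves induced by MAP kinase signalling, Dusp6 encodes a cytoplasmic enzyme that prefers ERK, and Dusp10 encodes an enzyme that prefers p38 and JNK. Many of these transcripts are short-lived and act in negative feedback after activation of lymphocytes, including natural killer (NK) cells. NKp46+ cells of the intestine can also include innate lymphoid cells other than NK cells.

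The promoters of Dusp1, Dusp2 and Dusp5 are printed here because these are the 3 members that passed the test as higher than in spleen both in intestine and in skin. Each line holds the 250 bases before the start of the gene, 5′ to 3′ on the strand of the gene, from RefSeq on build GRCm38.p6. The windows are chr17:26508473-26508722 on the minus strand for Dusp1, chr2:127335909-127336158 on the plus strand for Dusp2, and chr19:53528895-53529144 on the plus strand for Dusp5. Capitals mark matches to the cyclic AMP response element (CRE) and its half-site, which CREB family factors recognise, to the CArG box of serum response factor, and to the E-box of factors such as Myc. The half-site TGACG reads CGTCA where it lies on the opposite strand.
Dusp1: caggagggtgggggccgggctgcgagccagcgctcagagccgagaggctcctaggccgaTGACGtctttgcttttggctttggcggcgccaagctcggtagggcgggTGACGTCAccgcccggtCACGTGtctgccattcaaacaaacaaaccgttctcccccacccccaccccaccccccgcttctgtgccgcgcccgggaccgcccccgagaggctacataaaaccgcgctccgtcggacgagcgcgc
Dusp2: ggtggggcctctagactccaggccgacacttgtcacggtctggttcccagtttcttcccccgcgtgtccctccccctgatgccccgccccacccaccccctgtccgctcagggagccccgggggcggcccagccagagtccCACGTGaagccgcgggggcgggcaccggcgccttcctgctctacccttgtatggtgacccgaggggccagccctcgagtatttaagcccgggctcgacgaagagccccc
Dusp5: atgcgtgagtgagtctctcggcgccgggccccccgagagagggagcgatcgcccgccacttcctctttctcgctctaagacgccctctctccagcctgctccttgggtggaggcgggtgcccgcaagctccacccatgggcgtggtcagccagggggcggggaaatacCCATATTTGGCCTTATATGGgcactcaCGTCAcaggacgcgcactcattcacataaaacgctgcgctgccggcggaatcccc

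In all, 6 motifs were searched on both strands in windows of 300 bases (250 before and 50 after the start) of 32851 RefSeq starts, in which 5 of the 6 members had a window. Dusp4 is named only. The whole CRE, TGACGTCA, was found in 1.79% of all windows and, among the members, in Dusp1 at position -143, where positions count from the start of the gene. The half-site TGACG, which overlaps the whole CRE, was present in 20.8% of the windows and matched in Dusp1 (first bases at -191, -143 and -140), in Dusp2 (at 6, past the printed bases) and in Dusp5 (at -55). The CArG box was held by 1.63% of the windows, and Dusp5 had a pair of adjacent boxes, at -82 and -72. The E-box CACGTG was in 7.15% of the windows and in those of Dusp1 (at -126) and Dusp2 (at -109). No member window held the AP-1 site TGANTCA (7.81% of all windows) or the NF-kappaB site (4.51%), and the Dusp6 and Dusp10 windows had none of the 6 motifs. These are matches of letters and show no binding.

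Signals below are the deposited values in intensity units, after background subtraction and scaling of each array to the same mean. A probe was detected where its deposited detection p was under 0.01. Between 15196 and 18530 probes were detected per array, with 16549 and 15279 in intestine, 15196 and 16477 in skin, and 18266 and 18530 in spleen. Before scaling, the array means were 0.995 and 0.612 times the scaled mean in intestine, 0.526 and 0.643 times in skin, and 1.65 and 1.58 times in spleen. The 2 intestine arrays also stood further apart (SD of their log2 difference over the kept probes 0.32) than those of skin (0.26) and spleen (0.17). Of 12 NK cell markers, 10 were detected on both intestine arrays, 10 on both skin arrays and 11 on both spleen arrays, and Gzmb on none. Their summed signal was 14128 to 16394 in intestine, 23380 to 24739 in skin and 25003 to 25696 in spleen. Of the 12 gut epithelium markers, 6 (Epcam, Fabp1, Fabp2, Krt8, Krt19 and Alpi) were detected on no array. Detected on both arrays were 4 in intestine, 3 in skin and 2 in spleen. The summed signal was 121 to 181 in intestine, 114 to 133 in skin and 82.4 to 109 in spleen. Cdh1 passed as higher in intestine than in spleen and skin, and as higher in skin than in spleen. Lgals4 passed as lower in intestine than in skin, but not with its other kept probe. The macrophage and dendritic cell markers (18 genes, 9 of them detected on no array) summed to 249 to 285 in intestine, 384 to 391 in skin and 571 to 605 in spleen. The endothelium list (9 genes, 5 on no array, among them Cdh5 and Tek) summed to 585 to 760 in intestine, 205 to 252 in skin and 252 to 254 in spleen, mostly from Pecam1. Erythroid and platelet markers (11 genes, 5 on no array) summed to 696 to 1118 in intestine, 789 to 1044 in skin and 11707 to 17616 in spleen. Mast cell markers (8 genes, 5 on no array) summed to 31.1 to 56.9 in intestine, 159 to 222 in skin and 699 to 803 in spleen. Only 1 of them was detected on both arrays in intestine, 2 in skin and 1 in spleen. The 2 tested went opposite ways. Tpsb2 passed as higher in intestine and skin than in spleen. Cma1 passed as lower in both than in spleen, and as lower in intestine than in skin. The fibroblast list (10 genes, 6 on no array, among them Col1a1 and Col3a1) summed to 1736 to 1837 in intestine, 3712 to 3782 in skin and 1030 to 1042 in spleen, mostly from Thy1. Of 11 T cell markers, 5, Cd3e among them, were detected on no array. Detected on both arrays were 6 in intestine, 5 in skin and 5 in spleen. The list gave 998 to 1185 in intestine, 897 to 978 in skin and 997 to 1099 in spleen. Cd3g and Cd8a passed as higher in intestine than in spleen and skin. Cd8b1 passed as lower in intestine than in both and as higher in skin than in spleen. Lat passed as lower in intestine and skin than in spleen. The B and plasma cell (8 genes), neutrophil (9 genes) and keratinocyte (10 genes) lists stayed at or under 50.2 in every array. The exception was 1 spleen array with 156 for neutrophils. Mpo, Krt5 and Krt14 were detected on no array. Cd79b passed as higher in intestine than in spleen and skin, and as lower in skin than in spleen. Sfn passed as higher in intestine and skin than in spleen. Krt10 passed as lower in intestine than in spleen, and Camp as lower in skin than in spleen. The part of these markers and of the array depth in the DUSP differences was not tested.

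All 6 DUSP genes were higher in intestine than in spleen. Each passed with the probe that stands for it (the one with the highest mean), and 9 of the 10 probes were higher, none lower, with 1 Dusp6 probe not passing. Over all 18583 probes tested, 19.9% were higher and 27.6% lower in intestine than in spleen. The median log2 difference of the 10 probes was 1.53, against -0.07 over all probes. In skin against spleen 3 of the 10 probes were higher (Dusp1, Dusp2 and Dusp5) and none was lower, where 10.8% of all probes were higher and 12.1% lower, and the median difference was 0.27, against -0.04 over all probes. In intestine against skin 6 probes were higher (3 of Dusp4 and 1 each of Dusp5, Dusp6 and Dusp10) and none was lower, with 16.7% of all probes higher and 19.5% lower, and a median of 0.73, against -0.05 over all probes. The 3 Dusp4 probes entered the test only through their detection in intestine, so their calls were favoured by the filter. Without them the counts are 6 of 7 in intestine against spleen (median 1.45), 3 of 7 in skin against spleen (median 0.53) and 3 of 7 in intestine against skin (median 0.49), and 5 of the 5 other genes were higher in intestine than in spleen. The members, and the lists below, were chosen with earlier results of these data known. Their excess over all probes is therefore no independent finding about the family. In bulk RNA a difference in the share of cells that hold a transcript and one in its amount per cell cannot be told apart.

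**Figure D1:**
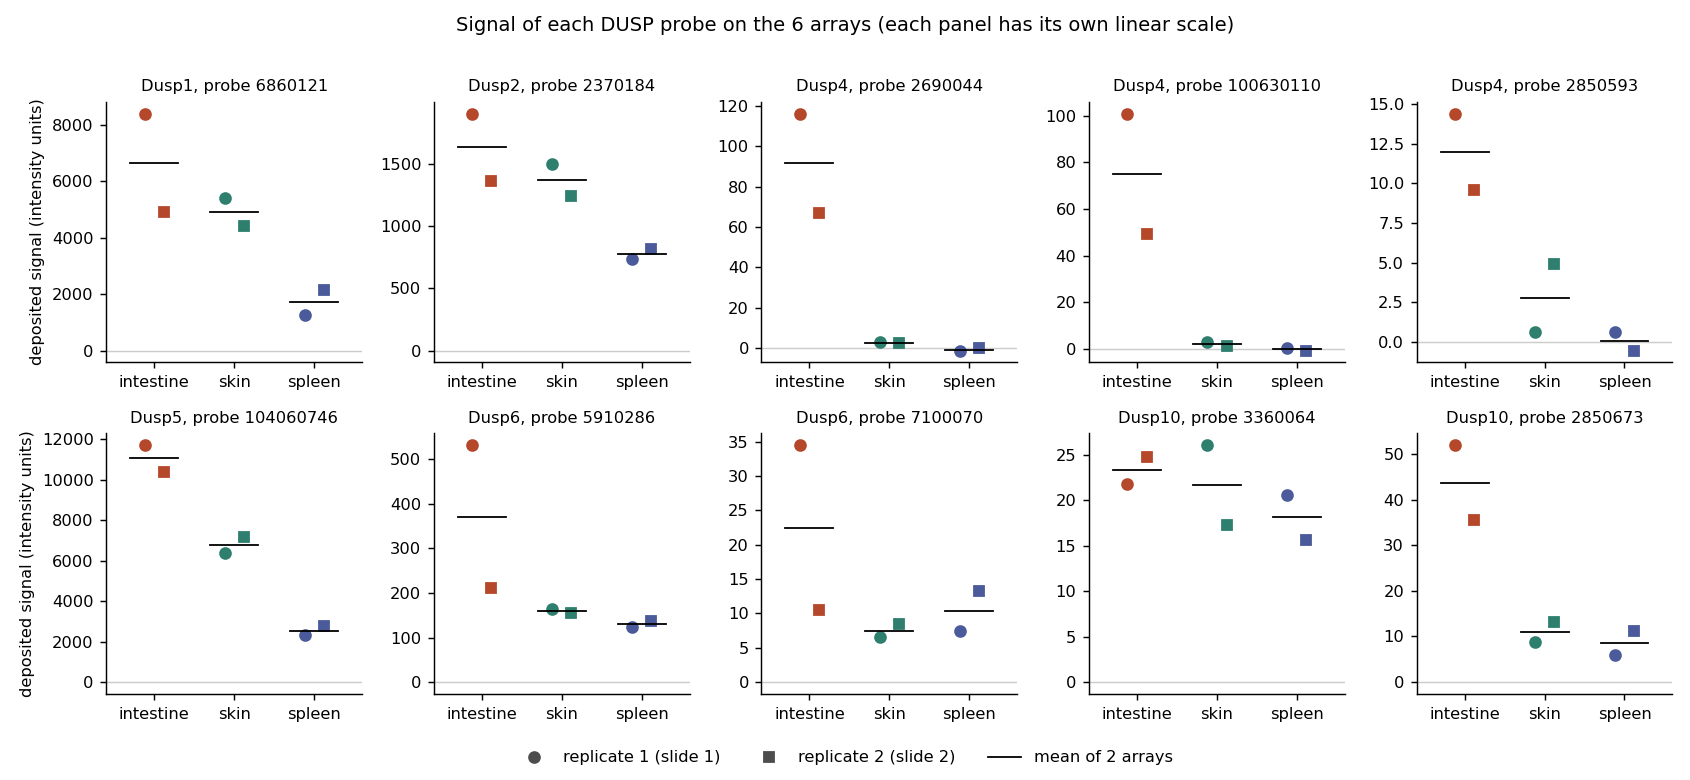
Deposited signal (intensity units, linear axes, one scale per panel) of each of the 10 DUSP probes in intestine, skin and spleen, with circles for replicate 1, squares for replicate 2 and a bar at the mean of the 2 arrays. The means step down from intestine through skin to spleen for every probe except Dusp6 probe 7100070. Skin passed against spleen only for Dusp1, Dusp2 and Dusp5, and intestine did not pass against skin for Dusp1 or Dusp2. The 3 Dusp4 probes are detected in intestine alone.

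Tests were limma fits over all 6 arrays on quantile-normalized log2(signal + 16), with Benjamini-Hochberg adjustment over all 18583 probes and a threshold of 0.05. Differences are the first tissue minus the second ± SE with n = 2 arrays per tissue, and the offset of 16 understates the change of dim probes. Replicate 1 of all tissues shared a slide, as did replicate 2, so the difference on each slide is given as well.

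Dusp1, a nuclear immediate early phosphatase that acts mainly on p38 and JNK, had signals of 8401 and 4914 in intestine, 5409 and 4405 in skin, and 1277 and 2140.0 in spleen. Both spleen arrays lay below all others, and the skin arrays overlapped the intestine range. Relative to spleen, intestine had 3.56-fold more Dusp1 signal (a log2 difference of 1.83 ± 0.28, limma adjusted p = 0.000501), by 2.57 on slide 1 and 1.10 on slide 2. In skin it was 2.90-fold higher than in spleen (1.54 ± 0.28, limma adjusted p = 0.00658), by 2.10 and 0.98 on the 2 slides. The skin difference did not pass without skin replicate 1 (1.35, adjusted p = 0.0649). Between intestine and skin Dusp1 differed by 0.30 ± 0.28 (limma adjusted p = 0.447), within the spread of the replicates.

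Dusp2, a nuclear phosphatase found mainly in blood cells, gave 1902 and 1363 in intestine, 1501 and 1244 in skin, and 736 and 815 in spleen. It followed the same order as Dusp1, with spleen lowest and intestine and skin overlapping. Relative to spleen, Dusp2 was 2.21-fold higher in intestine (1.14 ± 0.17, limma adjusted p = 0.000512), by 1.43 and 0.85 on the slides. The skin value was 1.89-fold that of spleen (0.92 ± 0.17, limma adjusted p = 0.00785), by 1.15 and 0.69 on the slides. That call was lost without spleen replicate 1 (0.84, adjusted p = 0.0808) and without skin replicate 1 (0.78, adjusted p = 0.0645). Intestine exceeded skin by 0.22 ± 0.17 (limma adjusted p = 0.352), which did not pass.

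Dusp4, a nuclear phosphatase of ERK, JNK and p38, was detected on both intestine arrays by each of its 3 probes and on no skin or spleen array. Probe 2690044 had 116 and 67.1 in intestine, 2.86 and 2.69 in skin, and -1.17 and -0.118 in spleen, where values near and below 0 are background. Since skin and spleen were not well above background, folds are given as bounds. Each bound sets the intestine mean against the lowest detected signal of each array in the other tissue. Here and below, an adjusted p beside a bound belongs to the fitted limma difference and does not test the bound. By that bound Dusp4 was at least 5.71-fold higher in intestine than in spleen (limma adjusted p = 2.56e-06) and at least 5.07-fold higher than in skin (limma adjusted p = 6.57e-06). Probe 100630110, with 101 and 49.2 in intestine, 3.01 and 1.24 in skin, and 0.462 and -0.814 in spleen, gave at least 4.76-fold (adjusted p = 1.43e-05) over spleen and at least 4.22-fold (adjusted p = 2.92e-05) over skin. The dimmest, probe 2850593, read 14.4 and 9.6 in intestine, 0.624 and 4.91 in skin, and 0.626 and -0.551 in spleen. Its bounds were at least 1.39-fold over spleen (adjusted p = 0.00279) and at least 1.24-fold over skin (adjusted p = 0.0138). This last call was lost with an offset of 64 and without intestine replicate 1 or skin replicate 1, with adjusted p up to 0.109. Between skin and spleen none of the 3 probes passed (limma adjusted p = 0.28, 0.567 and 0.411).

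Dusp5, a nuclear phosphatase with a strict preference for ERK, had 11707 and 10399 in intestine, 6401 and 7190.5 in skin, and 2326 and 2763 in spleen. No 2 tissues overlapped. The intestine signal was 3.67-fold that of spleen (1.87 ± 0.16, limma adjusted p = 1.49e-05), by 2.15 and 1.60 on the slides. In skin it was 2.61-fold higher than in spleen (1.39 ± 0.16, limma adjusted p = 0.001), by 1.43 and 1.34. The step between intestine and skin was smaller, 1.40-fold (0.49 ± 0.16, limma adjusted p = 0.039). This smaller step did not pass in 5 of 15 alternatives, with adjusted p up to 0.199 (without skin replicate 1).

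Dusp6, the cytoplasmic ERK phosphatase, had 532 and 211 in intestine, 164 and 156 in skin, and 123 and 138 in spleen with probe 5910286. Intestine replicate 1 stood well above every other array, and replicate 2 was still above skin and spleen. Relative to spleen, this probe was 3.04-fold higher in intestine (1.60 ± 0.29, limma adjusted p = 0.00144), by 2.25 on slide 1 and 0.96 on slide 2. Against skin, intestine was 2.11-fold higher (1.08 ± 0.29, limma adjusted p = 0.0149), by 1.60 and 0.55, and this did not pass without skin replicate 1 (adjusted p = 0.0692) or skin replicate 2 (adjusted p = 0.0821). Skin exceeded spleen by 0.53 ± 0.29 (limma adjusted p = 0.20), which passed without intestine replicate 1 (adjusted p = 0.0147) or replicate 2 (adjusted p = 0.0144). The second probe of Dusp6, 7100070, was dimmer, with 34.5 and 10.5 in intestine, 6.54 and 8.44 in skin (1 of 2 arrays detected), and 7.39 and 13.3 in spleen. It passed in no comparison (intestine against spleen 0.57 ± 0.30, limma adjusted p = 0.133, intestine against skin 0.79 ± 0.30, adjusted p = 0.0605, skin against spleen -0.22 ± 0.30, adjusted p = 0.607). With the slide as a block, its intestine against skin difference passed (adjusted p = 0.0466). That difference also passed without intestine replicate 2 (1.41, adjusted p = 0.000355) and was 0.23 without intestine replicate 1. Without intestine replicate 2 its difference from spleen passed (1.18, adjusted p = 0.000734), and without intestine replicate 1 it was -0.001435.

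Dusp10, a phosphatase of p38 and JNK, had 2 probes that differed from each other. Probe 2850673 gave 51.9 and 35.5 in intestine, 8.88 and 13.1 in skin (1 of 2 arrays detected), and 5.84 and 11.2 in spleen, so that intestine lay apart from the other tissues. Its intestine signal was 2.73-fold that of spleen (1.45 ± 0.18, limma adjusted p = 0.00017) and 2.59-fold that of skin (1.37 ± 0.18, limma adjusted p = 0.000293), while skin and spleen differed by 0.07 ± 0.18 (adjusted p = 0.79). Probe 3360064 had 21.9 and 24.8 in intestine, 26.1 and 17.3 in skin, and 20.6 and 15.7 in spleen, with overlap between skin and each other tissue. The intestine signal was 1.37-fold that of spleen (0.45 ± 0.15, limma adjusted p = 0.0356), and this call was lost in 7 of 15 alternatives, among them median scaling (0.18, adjusted p = 0.346) and the deposited scaling alone (0.21, adjusted p = 0.285). Its other differences did not pass (skin against spleen 0.24 ± 0.15, adjusted p = 0.273, intestine against skin 0.21 ± 0.15, adjusted p = 0.321).

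The replicates of intestine were unequal for most DUSP probes. In 9 of the 10 probes, some of which share a gene, intestine replicate 1 was above replicate 2, the exception being Dusp10 probe 3360064. The same share over all probes was not counted. The fitted intestine against spleen differences of Dusp1, Dusp2, all 3 Dusp4 probes, Dusp5, Dusp6 probe 5910286 and Dusp10 probe 2850673 nevertheless passed in every alternative that could be computed. Over those alternatives the Dusp1 difference ranged over 1.47 to 2.27, that of Dusp2 over 0.93 to 1.32, that of Dusp5 over 1.73 to 2.11 and that of Dusp6 probe 5910286 over 1.03 to 2.15. The ranges of the 2 arrays of each tissue did not overlap for 9 of the 10 probes in intestine against spleen and for 7 in each other comparison. Without the Dusp4 probes this held for 6 of 7 in intestine against spleen, 5 of 7 in skin against spleen and 4 of 7 in intestine against skin. Over all probes 77.2% did not overlap in intestine against spleen, 71.5% in skin against spleen and 64% in intestine against skin, so that non-overlap alone is common in these data.

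**Figure D2:**
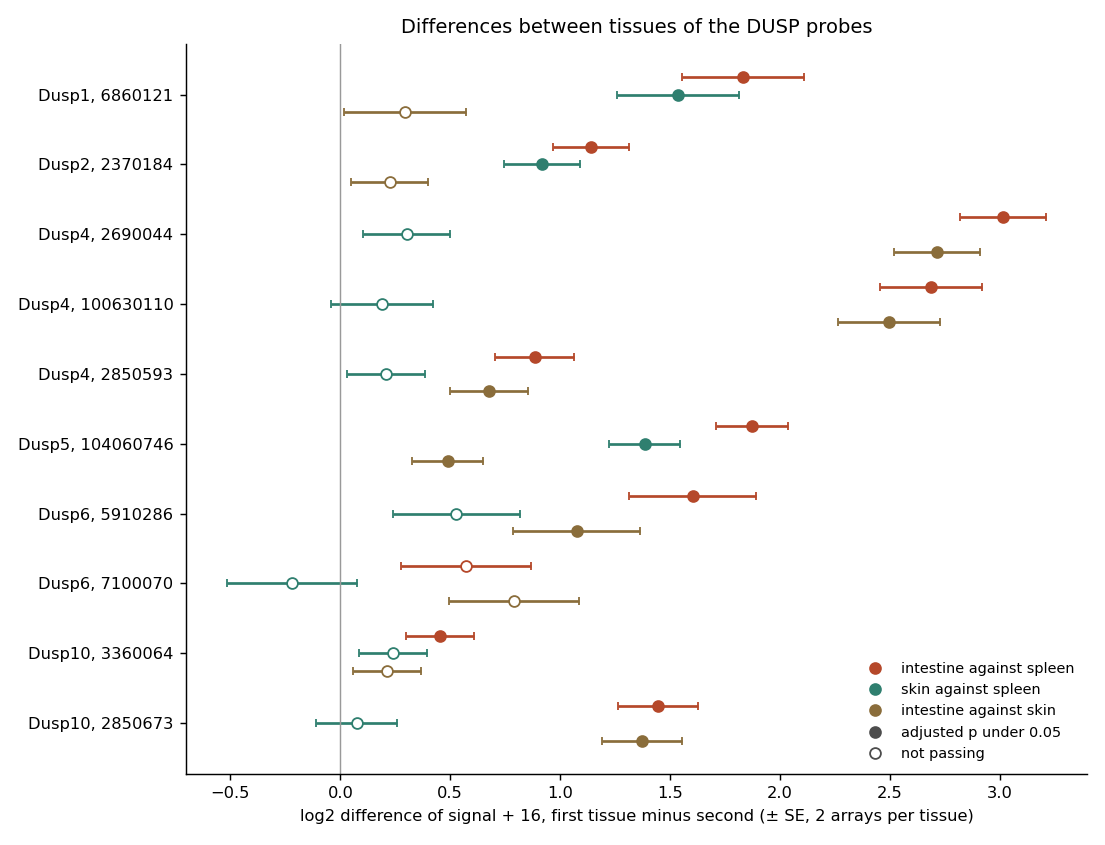
Log2 difference of signal + 16 (x axis, first tissue minus second, bars ± SE, n = 2 arrays per tissue) for each DUSP probe (y axis) in intestine against spleen, skin against spleen and intestine against skin, with filled points for adjusted p under 0.05. The differences from spleen are positive in intestine for all 10 probes, while in skin 3 pass, those of Dusp1, Dusp2 and Dusp5.

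Other members of the phosphatase family were read from lists. A list of further MAP kinase phosphatases and related genes held 5 (Dusp7, Dusp8, Dusp9, Dusp16 and Styxl1). Of these, 3 (Dusp7, Dusp8 and Dusp16) had a probe that could be tested. Dusp8 and Dusp16, 2 of the 3, were higher in intestine than in spleen, against 20.5% of all genes higher and 27.7% lower. Dusp8 was tested only through its detection in intestine, which leaves 1 of 2 without it. Dusp16, which dephosphorylates JNK and p38, had 97.4 and 91.9 in intestine, 14.4 and 12.7 in skin, and 19.6 and 21.3 in spleen. Both intestine arrays exceeded every other array, and Dusp16 was 3.74-fold higher than in spleen (1.90 ± 0.13, limma adjusted p = 3.38e-06) and higher than in skin by 2.14 ± 0.13 (adjusted p = 2.37e-06). Its second kept probe gave 1.41 and 1.82 in the same comparisons, and skin did not pass against spleen (-0.24 ± 0.13, adjusted p = 0.202). Dusp8, another phosphatase of JNK and p38, was dim, with 8.8 and 13.9 in intestine, no detection in skin, and 2.5 and 5.74 in spleen (1 of 2 arrays detected). The fitted difference between intestine and spleen, 0.48 ± 0.16 (limma adjusted p = 0.0315), rests on spleen signals near background and was called in 7 of 14 alternatives, and Dusp8 was at least 1.21-fold higher than in skin (adjusted p = 0.00374). None of the 3 passed between skin and spleen.

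The atypical dual-specificity phosphatases are small enzymes without the MAP kinase binding domain. Of 15 listed genes 8 were tested, and in intestine against spleen 1 was higher and 2 lower (median -0.35, against -0.04 over all genes, with 20.5% higher and 27.7% lower). In skin against spleen 1 was higher and none lower (median 0.14, against 0.00 over all genes, with 12.3% higher and 10.7% lower). In intestine against skin none was higher and 3 lower (median -0.38, against -0.08 over all genes, with 16% higher and 22.1% lower). Dusp19 was lower in intestine than in spleen by -0.95 ± 0.17 (64.3 and 45.4 in intestine, 168 and 161 in spleen, limma adjusted p = 0.00157). Dusp22 was lower in intestine than in skin by -0.67 ± 0.19 (adjusted p = 0.019, kept in 13 of 15 alternatives). Dusp11, a phosphatase of RNA, was higher in intestine than in spleen by 0.57 ± 0.13 with the probe that stands for it, and lower with its other kept probe (-1.20 ± 0.15). Dusp3, a phosphatase of ERK and JNK, was higher in skin than in spleen by 0.60 ± 0.15 (adjusted p = 0.0194), a call kept in 10 of 15 alternatives. Of 8 other phosphatases of MAP kinases, 2 were lower and none higher in intestine than in spleen by their brightest kept probe (27.7% lower and 20.5% higher over all genes). With those probes 1 was lower in skin than in spleen, and none passed in intestine against skin. Other kept probes of Ppm1b differed. Intestine exceeded skin by 0.90 ± 0.20 with probe 380180 (limma adjusted p = 0.00539) and by 0.72 ± 0.13 with 101230446 (adjusted p = 0.00187). Skin was lower than spleen with 380180 (-0.85 ± 0.20, adjusted p = 0.0168), and intestine was higher than spleen with 101230446 (0.55 ± 0.13, adjusted p = 0.00673). Probe 3610215 of Ppm1b passed in no comparison. Ptpn7, a tyrosine phosphatase of ERK in blood cells, was lower in intestine than in spleen by -0.56 ± 0.17 (limma adjusted p = 0.0215, kept in 12 of 15 alternatives). Ppm1d was lower by -0.44 ± 0.16 with 1 probe (kept in 11 of 15 alternatives) and higher by 1.53 ± 0.21 with another. That other probe was also higher in intestine than in skin (0.82 ± 0.21, limma adjusted p = 0.0123) and in skin than in spleen (0.71 ± 0.21, adjusted p = 0.0373).

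**Figure D3:**
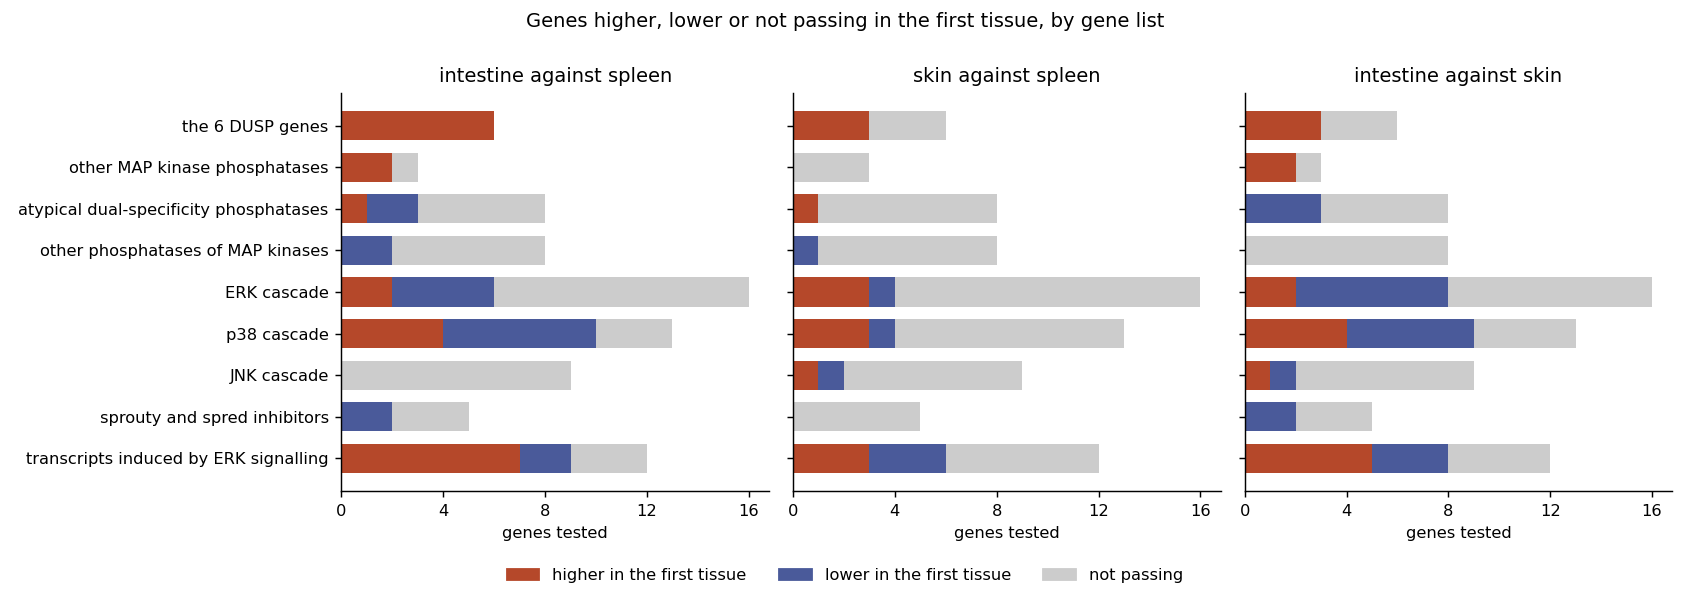
Number of genes (x axis, 1 probe per gene) higher in the first tissue, lower in it or not passing at adjusted p under 0.05, for the 6 DUSP genes and 8 other gene lists (y axis), in the 3 comparisons. The 6 DUSP genes are counted as higher in intestine than in spleen, Dusp4 having been tested only through its detection in intestine and the Dusp10 call being lost in 7 of 15 alternatives.

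The kinase cascades upstream were read in the same way. Of 16 ERK cascade genes tested, 2 were higher and 4 lower in intestine than in spleen (median -0.17, against -0.04 over all genes, of which 20.5% were higher and 27.7% lower). Map3k8, a kinase that activates the ERK pathway downstream of inflammatory receptors, had 555 and 355 in intestine, 206 and 173 in skin, and 219 and 224 in spleen. Its intestine signal was 2.39-fold that of spleen (1.26 ± 0.18, limma adjusted p = 0.000384), but its other kept probe gave -0.26 ± 0.21 (adjusted p = 0.306). Rasgrp2, an exchange factor for the small GTPase Rap, was lower in intestine than in spleen by -1.13 ± 0.14 (24.4 and 30.5 in intestine, 109 and 109 in spleen, adjusted p = 0.000128) and lower in skin than in spleen by -0.78 ± 0.14 (adjusted p = 0.00594, kept in 13 of 15 alternatives). In skin against spleen 3 ERK cascade genes were higher and 1 lower, and in intestine against skin 2 were higher and 6 lower. Over all genes 12.3% were higher and 10.7% lower in skin than in spleen, and 16% higher and 22.1% lower in intestine than in skin.

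Of 13 p38 cascade genes, 4 were higher and 6 lower in intestine than in spleen (median -0.22), 3 were higher and 1 lower in skin than in spleen (median 0.30), and 4 were higher and 5 lower in intestine than in skin (median -0.31). Mapkapk3, a kinase that p38 activates, had 294 and 326 in intestine, 88 and 110.0 in skin, and 73.2 and 83.1 in spleen, which puts intestine 4.45-fold above spleen (2.15 ± 0.15, limma adjusted p = 3.96e-06). Map2k3, a kinase that activates p38, was higher in intestine than in spleen by 1.33 ± 0.20 (adjusted p = 0.000569), and Map2k6, with the same role, was lower by -1.19 ± 0.23 (adjusted p = 0.00195). Mapk14, the main p38 kinase, was lower in intestine than in skin by -1.11 ± 0.15 (134 and 136 in intestine, 331 and 356 in skin, adjusted p = 0.000347). Of 9 JNK cascade genes, none passed in intestine against spleen by the brightest kept probe, and 1 was higher and 1 lower in each other comparison. With other kept probes, Map4k4 was higher in intestine than in spleen (0.65 ± 0.17, limma adjusted p = 0.0109) and Mapk8ip3 lower (-0.49 ± 0.18, adjusted p = 0.0486). Over all genes 20.5% were higher and 27.7% lower in intestine than in spleen (median -0.04). The shares were 12.3% higher and 10.7% lower in skin than in spleen (median 0.00). In intestine against skin 16% of all genes were higher and 22.1% lower (median -0.08).

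Sprouty and spred proteins also act as feedback inhibitors of ERK signalling. Of 5 sprouty and spred inhibitors and related genes tested, none was higher and 2 were lower in intestine than in spleen (median -0.31, with 20.5% higher and 27.7% lower over all genes). Rasa1, a protein that turns off Ras, had 413 and 453 in intestine, 1421 and 1654 in skin, and 1609.6 and 1643 in spleen. In intestine it was 3.40-fold lower than in spleen (-1.77 ± 0.14, limma adjusted p = 1.04e-05) and lower than in skin by -1.73 ± 0.14 (adjusted p = 1.5e-05), with -0.87 and -0.45 from its other kept probe, and the second of these did not pass (adjusted p = 0.0586). Spred1 was lower in intestine than in spleen by -0.61 ± 0.18 (adjusted p = 0.0186, kept in 12 of 15 alternatives), and its other kept probe did not pass (-0.15 ± 0.22, adjusted p = 0.584).

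Among 12 transcripts known to be induced by ERK signalling, 7 were higher and 2 lower in intestine than in spleen, with a median of 1.04, against -0.04 over all genes, of which 20.5% were higher and 27.7% lower. Fosl2, a subunit of the AP-1 transcription factor, had 940.3 and 1028 in intestine, 172 and 254 in skin, and 173 and 168 in spleen. The intestine signal was 6.5-fold that of spleen (2.70 ± 0.18, limma adjusted p = 2.75e-06), with 3.41 and 1.59 from its other kept probes. Phlda1 was higher by 2.09 ± 0.26 (1161 and 923 in intestine, 206 and 367 in spleen, adjusted p = 0.000163) and Ier3 by 1.99 ± 0.31 (116 and 41 in intestine, 8.99 and 7.88 in spleen, adjusted p = 0.000623). In skin against spleen 3 were higher and 3 lower (median 0.17, with 12.3% higher and 10.7% lower over all genes). Fos and Egr1, immediate early transcription factors, were among those higher, Fos by 1.13 ± 0.28 (3237 and 3018 in skin, 1077 and 1893 in spleen, adjusted p = 0.0203, kept in 12 of 15 alternatives) and Egr1 by 1.08 ± 0.24 (593 and 501 in skin, 226 and 380.3 in spleen, adjusted p = 0.0138, kept in 13 of 15). Phlda1 was lower in skin than in spleen by -0.85 ± 0.26 (adjusted p = 0.0438, kept in 10 of 15). In intestine against skin 5 were higher and 3 lower (median 0.51, with 16% higher and 22.1% lower over all genes), Myc among the higher (152 and 68.7 in intestine, 18.8 and 20.8 in skin, 1.94 ± 0.25, adjusted p = 0.000268).

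The genes with profiles most like each DUSP gene were sought among 13424 other genes, by the root mean square (RMS) distance of centred log2 values over the 6 arrays. For Dusp1 the nearest were A130038J17Rik (RMS 0.153), Jund (0.215), a subunit of AP-1, and Dusp5 (0.256). Jund had 236 and 170.3 in intestine, 193 and 184 in skin, and 72 and 112 in spleen, low in both spleen arrays like Dusp1. Dusp2 lay nearest to Slc38a10 (0.097), A130014O09Rik (0.100) and Gtf2f1 (0.100), a general transcription factor subunit. The profile of Dusp4 was closest to Fam110a (0.074), Tent5c (0.148) and Sqstm1 (0.156), which encodes an autophagy receptor. Sqstm1 had 5850 and 4083 in intestine, 848 and 831 in skin, and 649 and 756 in spleen. Dusp5 was nearest to D130062J21Rik (0.098), the kinase gene Hipk1 (0.131) and 2810459M11Rik (0.147). For Dusp6 the list was Rasd1 (0.121), Relch (0.144) and the chaperone gene Dnajb9 (0.160). Rasd1, a small GTPase, had 62.9 and 30 in intestine, 17.7 and 12.5 in skin, and 2.63 and 6.7 in spleen, highest in intestine replicate 1 as Dusp6 was. Dusp10, by probe 3360064, varied little, and its nearest genes F730006M22Rik (0.037), Mapk8ip2 (0.039) and Tceal3 (0.044) were as flat. These distances describe 6 arrays that share 2 slides and carry no test.

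**Figure D4:**
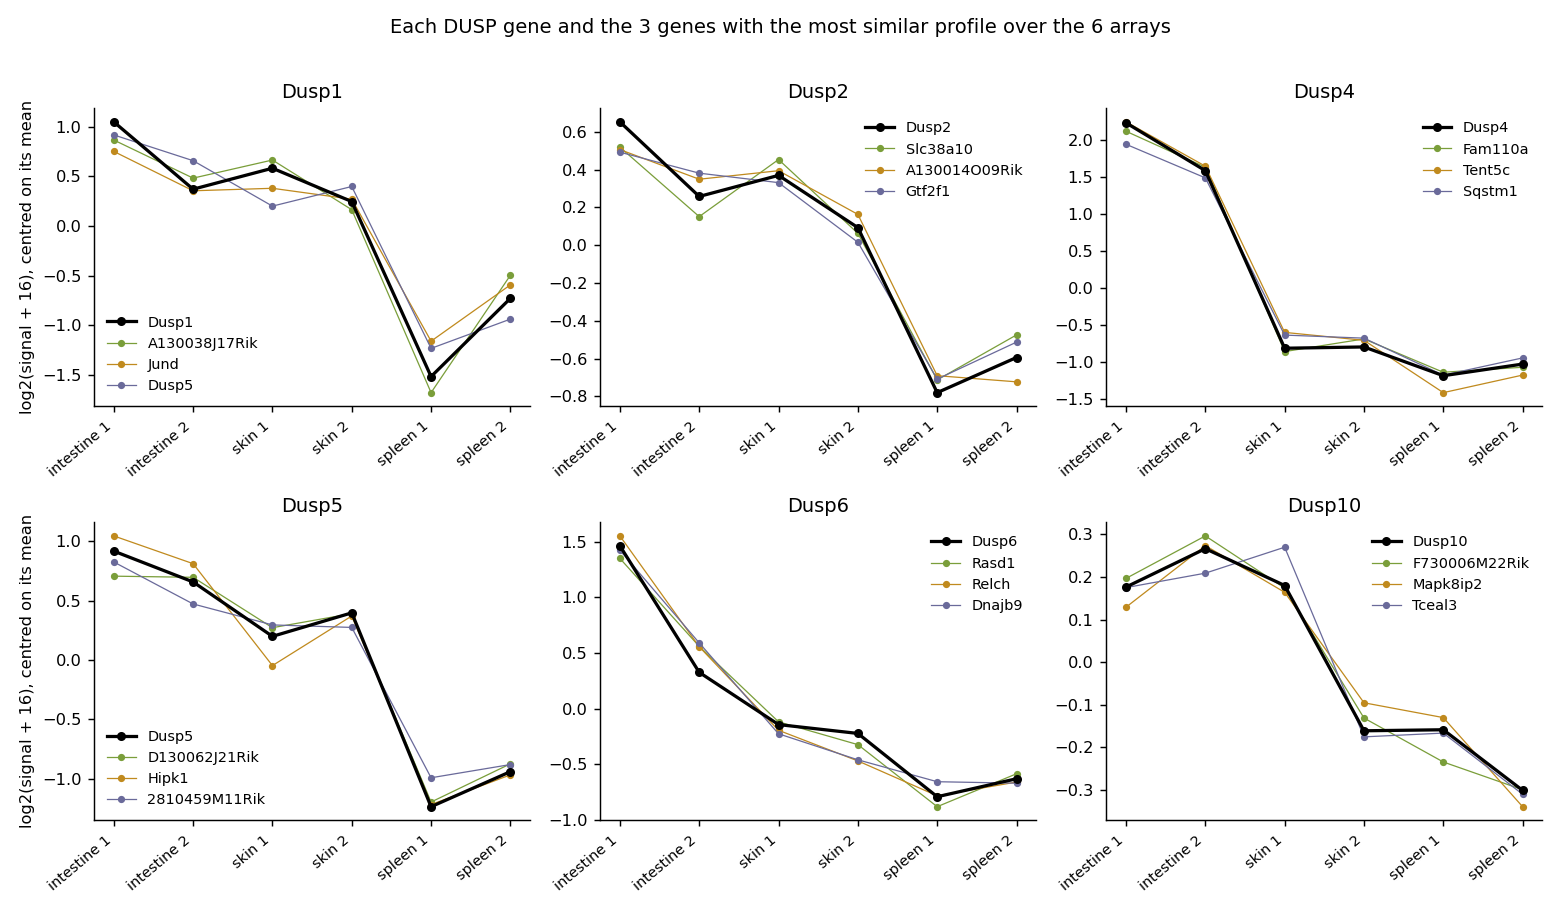
Normalized log2(signal + 16), centred on its own mean (y axis), on each of the 6 arrays (x axis) for each DUSP gene (black) and the 3 genes with the smallest RMS distance (coloured). Dusp1, Dusp2 and Dusp5 and their neighbours fall at the spleen arrays, while Dusp4 and its neighbours already fall at the skin arrays.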

How the data were processed

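Per the labels' protocols, RNA of the sorted cells was purified on RNeasy Micro columns and amplified into biotin-labelled cRNA, which was read on Illumina BeadChips for mouse. BeadStudio 1.5.1.3 is named in the submitters' processing notes. Per the file headers, the deposited tables give an average intensity and a detection p-value per probe. The deposited intensity values were background-subtracted, with 30.7% to 32.7% of probes of an array below 0, and scaled to a mean of 83.1 on every array, as the values show. The rule behind the deposited detection p-value is not stated in those headers. A series-wide table holds the same intensity values before scaling and served as an alternative.

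An offset of 16 was added, sums under 1 were set to 1, the log2 was taken and all 6 arrays were quantile normalized (limma 3.58.1, R 4.3.3). A probe was kept if any tissue had a detection p under 0.01 on both of its arrays (18583 probes, all 10 DUSP probes among them). The 3 comparisons were fitted with lmFit and eBayes as tissue means (residual degrees of freedom 3), with Benjamini-Hochberg adjustment over all kept probes and a threshold of 0.05. For gene lists the brightest kept probe by mean represented each of 13425 genes. The fit was also run on simulated arrays with independent noise and few changed probes. That setting lacks the shared slides, unequal depth and many calls of these data, so nothing is concluded from it. The number of arrays limits the precision.

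Gene names were updated through the RefSeq table (GRCm38.p6): 20169 probes had a current symbol, 12908 an older one, 1200 were named by gene ID, 10639 kept the name in the file and 1727 had none. Every probe of a member was reported. From each list up to 3 called genes with the largest difference per comparison were eligible to be named (or, with no call, the 2 brightest), and for each member the 3 genes with the nearest profile. A gene that this rule names in the ERK cascade is not reported here. The members and lists were chosen with earlier results of these data known.

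The replicate number marks a shared slide, read from the array names in the file headers. Over 18583 probes, deviations of same-numbered samples correlated at 0.107 for intestine and skin, 0.143 for intestine and spleen, and 0.193 for skin and spleen. The main differences, SEs and p-values come from the fit of tissue means, which does not use this pairing. The slide as a block was run only as an alternative. The alternatives were offsets of 32 and 64, median scaling, the deposited scaling alone, the unscaled signals, no filter, detection on all arrays, 1 probe per gene, the slide as a block, and each array left out in turn.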

Additional observations from a re-analysis of the deposited data

How the results depend on the processing

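With 2 arrays per tissue, no tissue can be checked further than by leaving out 1 array, and the lone array is then assumed to vary like the others. Of 423 fits of the DUSP probes under alternatives, 394 kept direction and side of the threshold, 20 lost a call, 5 gained one and 4 changed sign. Of 850 fits of the named list genes, 726 kept both, 113 lost a call and 11 changed sign. With the replicate block (paired by slide), 9483 probes passed in intestine against spleen, 5114 in skin against spleen and 7218 in intestine against skin, and the block changed no DUSP call other than that of Dusp6 probe 7100070 in intestine against skin (0.79, adjusted p = 0.0466). For Dusp4 in skin and spleen, signals near background allow only a bound. The causes of the changes below were not tested.

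Over all probes 8822 passed in intestine against spleen (41.9% of them higher), 4253 in skin against spleen (47.0%) and 6727 in intestine against skin (46.0%). With 1 array left out, these ranged over 5211 to 9078, over 622 to 6422, and over 4925 to 7387. Without spleen replicate 1 and 2, 5211 and 5279 passed in intestine against spleen, and 632 and 622 in skin against spleen. The skin against spleen count was 1165 without skin replicate 1, 2482 without skin replicate 2, 6421 without intestine replicate 1 and 6422 without intestine replicate 2. Median scaling gave 10396, 7059 and 6985 calls, of which 22.6%, 22.0% and 37.5% were higher, with the median of all probes at -0.29, -0.22 and -0.11 in the 3 comparisons in that order. The deposited scaling alone gave 10334 (24.7% higher), 6362 (30.7%) and 7366 (33.6%). No filter left 2277 calls in skin against spleen. Neither scaling turned the direction of a DUSP probe.

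With 1 array left out, the number of DUSP probes that passed ranged over 8 to 9 in intestine against spleen, 1 to 4 in skin against spleen and 3 to 7 in intestine against skin. Of these probes, 5 of 5 passed in intestine against spleen when detection on all arrays was required. Over all probes, 6555 of 12308 passed under that filter in intestine against spleen, and 5743 of 12308 in intestine against skin. With 1 probe per gene, 5274 of 13425 passed in intestine against skin. In intestine against skin 2 of 5 passed under that filter, 3 of 6 with 1 probe per gene, and 3 without skin replicate 1, and in skin against spleen 1 passed without skin replicate 1.

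No difference that changed sign had passed the test. Each is given with its range over the fits that leave out 1 array. In intestine against spleen these were Dusp6 probe 7100070 (-0.001435 to 1.18, below 0 without intestine replicate 1) and Map3k1 (-0.24 to 0.15, above 0 without intestine replicate 1, and 0.01 without spleen replicate 2). In skin against spleen they were Dusp10 probe 2850673 (-0.0743 to 0.22, below 0 without skin replicate 2 or spleen replicate 1), Rasa1 (-0.14 to 0.0609, above 0 without skin replicate 1), Dusp7 (-0.0603 to 0.131, below 0 without skin replicate 1 or spleen replicate 1) and Spred1 (-0.14 to 0.32, below 0 without skin replicate 1), which was also below 0 under median scaling (-0.25) and the deposited scaling (-0.18). In intestine against skin they were Dusp1 (-0.0426 to 0.62, below 0 without intestine replicate 1) and Ppm1b (-0.11 to 0.113, below 0 without skin replicate 1 or intestine replicate 2), which was also below 0 under the deposited scaling (-0.0065).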
